A study of Mus musculus with 6 samples.

Results

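The genes described here are the immunoglobulin constant genes Ighm, Ighd, Igha, Igkc, Iglc1, Iglc2 and Iglc3, together with Jchain, in single cells of the mouse lung. They were taken by symbol, and all 8 were found among the 32285 genes of the count matrices. The rule named the genes and used no measured value. The libraries were made from lungs of wild-type C57BL/6N pups, dissociated and sorted for live cells, and each library pooled 3 mice of one sex. Female and male lungs were taken at postnatal day 1 in room air (21% oxygen), at day 21 in room air, and at day 21 after hyperoxia, which was 95% oxygen from day 1 to day 5 followed by room air. That gives 6 libraries, 1 per sex, age and treatment, so no group has a replicate and the cells of a library are not replicates. Values are given female first, then male, unless stated otherwise.

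An antibody is built from heavy and light chains, and each chain joins a variable region to a constant region. Ighm and Ighd encode the constant regions of the IgM and IgD heavy chains, which a mature naive B cell makes together by splicing of one long transcript, and Igha encodes that of IgA, which appears after class switching. Igkc is the kappa light chain constant gene and Iglc1, Iglc2 and Iglc3 are the lambda ones. A B cell is known to make, as a rule, a single kind of light chain. Jchain encodes the small protein that links IgM or IgA into polymers and is made in quantity by plasma cells.

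By the GENCODE M21 annotation (GRCm38), the heavy chain genes lie on the minus strand of chromosome 12: Ighm at chr12:113418558-113422730, Ighd at chr12:113406604-113416324 and Igha at chr12:113254830-113260236. Igkc lies on the plus strand at chr6:70726435-70726966, and Jchain on the minus strand at chr5:88519809-88527891. The lambda genes lie on the minus strand of chromosome 16, with Iglc1 at chr16:19061618-19062071, Iglc3 at chr16:19065230-19065681 and Iglc2 at chr16:19198396-19200351. Igkc, Iglc1 and Iglc3 have 1 exon, and the other members have introns in at least one annotated transcript.

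The lambda copies are close relatives, and reads of 3′ libraries can only be given to one copy where its sequence differs. The last 150 coding bases before the stop codon are shown for that reason, from the reference genome GRCm38, minus strand, 5′ to 3′. Capitals mark the 55 positions at which the 3 copies are not all the same. The stretches are chr16:19061755-19061904 for Iglc1, chr16:19198539-19198688 for Iglc2 and chr16:19065368-19065517 for Iglc3.
Iglc1: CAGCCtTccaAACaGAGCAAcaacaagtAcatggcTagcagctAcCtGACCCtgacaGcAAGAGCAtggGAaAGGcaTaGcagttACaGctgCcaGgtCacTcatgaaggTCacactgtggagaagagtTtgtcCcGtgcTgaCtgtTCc
Iglc2: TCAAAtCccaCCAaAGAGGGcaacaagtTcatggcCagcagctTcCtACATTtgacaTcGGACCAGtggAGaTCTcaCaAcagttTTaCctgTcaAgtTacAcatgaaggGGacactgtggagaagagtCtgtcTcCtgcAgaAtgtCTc
Iglc3: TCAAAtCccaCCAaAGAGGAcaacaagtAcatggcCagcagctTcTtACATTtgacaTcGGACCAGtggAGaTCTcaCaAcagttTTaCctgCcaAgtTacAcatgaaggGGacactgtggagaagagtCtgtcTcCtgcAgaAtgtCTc
Iglc2 and Iglc3 differed at 4 of these positions, while Iglc1 differed from Iglc2 at 54 and from Iglc3 at 52. Over the whole coding sequence Iglc2 and Iglc3 were 96.2% identical, against 73.4% for Iglc1 and Iglc2 and 74.5% for Iglc1 and Iglc3. Of the 50-base windows of the Iglc2 transcript, 43 of 409 (10.5%) also occurred in Iglc3, and 0 of the 405 windows of Iglc1 occurred in either of the other copies. The split of UMIs between Iglc2 and Iglc3 is therefore less certain than that between either of them and Iglc1.

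The libraries held 122173482 to 163649658 unique molecular identifiers (UMIs, each standing for 1 captured transcript), and 7074 to 11543 cells with one of the authors' cell classes. The class B Cells held 134 and 114 cells at day 1, 110 and 234 in room air at day 21, and 336 and 141 after hyperoxia, with a median of 7311 to 11687.5 UMIs per cell. Of 55544 classed barcode sequences 338 occurred in more than 1 library, and no sequence was a B Cell in more than 1 library. The B cell markers Cd79a, Cd79b and Ms4a1 were detected in B Cells of each library, Cd79a at 862 to 3216 CPM (UMIs of a gene per 1000000 UMIs of the cells), Cd79b at 703 to 2224 CPM and Ms4a1 at 284 to 1351 CPM. In the female hyperoxia library 64.9% of B Cells held an Xist UMI, against 93.3% and 92.7% in the other female libraries.

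The label B Cells did not hold for all of its cells at day 1. There, 40 of 134 (29.9%) and 49 of 114 (43.0%) B Cells had no UMI of Cd79a or Cd79b, which encode the signalling chains of the B cell receptor, against 1 of 336 cells after hyperoxia in females and 0 cells in the other day 21 libraries. Those day 1 cells held 16570 and 20955 CPM of Cst3 and 5704 and 5900 CPM of H2-Ab1, a gene for antigen presentation. They held 86.4 and 62.0 CPM of Ighm and no Igkc UMI. Day 1 levels of the main members and the age tests are therefore also given for B Cells with a Cd79a or Cd79b UMI, a choice made after seeing the data, while detection shares and light chain calls are given for the whole class.

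At day 21 all members but Igha and Jchain were found in most B Cells of each library. Together the 8 genes made up 0.581% and 0.352% of the UMIs of B Cells at day 1, 1.52% and 1.81% in room air at day 21, and 1.52% and 1.20% after hyperoxia. In B Cells of day 1 with a Cd79a or Cd79b UMI the share was 1.02% and 0.735%. UMIs are counted near the 3′ end and were not scaled by transcript length, so levels are compared between libraries and not between genes. Where levels of the ages are said to overlap or not, the share of all genes that did so was not counted. Intervals for single libraries are exact 95% Poisson or binomial intervals and cover counting error only, since the mice of a pool cannot be separated.

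Among the heavy chains, Ighm stood at 1495 (1433 to 1559) and 875 (826 to 926) CPM at day 1, at 3501 (3402 to 3601) and 3263 (3184 to 3344) CPM in room air at day 21, and at 3254.5 (3192 to 3317) and 2363 (2284 to 2443) CPM after hyperoxia. Each day 21 library lay above both day 1 libraries, and the male hyperoxia library was the lowest of the day 21 libraries. In Cd79-holding cells of day 1 Ighm stood at 2580 and 1777 CPM, so that the female day 1 library lay above the male hyperoxia library. Ighm was found in 86.6% and 75.4% of B Cells at day 1 and in 100% of them in each day 21 library. The median B Cell held 15 and 5 Ighm UMIs at day 1, 35 and 24 in room air at day 21, and 26 and 21 after hyperoxia.

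Ighd, the IgD heavy chain, stood at 43.0 and 29.0 CPM at day 1, at 421 and 486 CPM in room air at day 21, and at 427 and 409 CPM after hyperoxia. The ages did not overlap, also with the 76.2 and 59.7 CPM of Cd79-holding cells at day 1, and the 4 day 21 libraries lay close together. The share of B Cells with both an Ighm and an Ighd UMI was 24.6% and 20.2% at day 1, 83.6% and 84.2% in room air at day 21, and 86.3% and 87.2% after hyperoxia. No B Cell held Ighd without Ighm. For each Ighd UMI there were 34.7 and 30.2 Ighm UMIs at day 1, and 5.78 to 8.31 at day 21. These are ratios of UMIs summed over the class.

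Igha was nearly absent from B Cells, with 1 to 11 UMIs per library (0.689 to 5.57 CPM) and at most 3 in a single cell. Of the other constant genes that follow class switching, Ighg1, Ighg2c and Ighe had 0 UMIs in B Cells of every library, where 0 allows up to 0.932 to 2.19 CPM. Ighg2b had 0 to 11 UMIs per library, at day 1 all in a single cell of each library. Ighg3 had 38 UMIs (highest cell 13) and 19 UMIs (highest cell 17) in room air at day 21, 3 and 2 UMIs after hyperoxia and none at day 1.

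**Figure D1:**
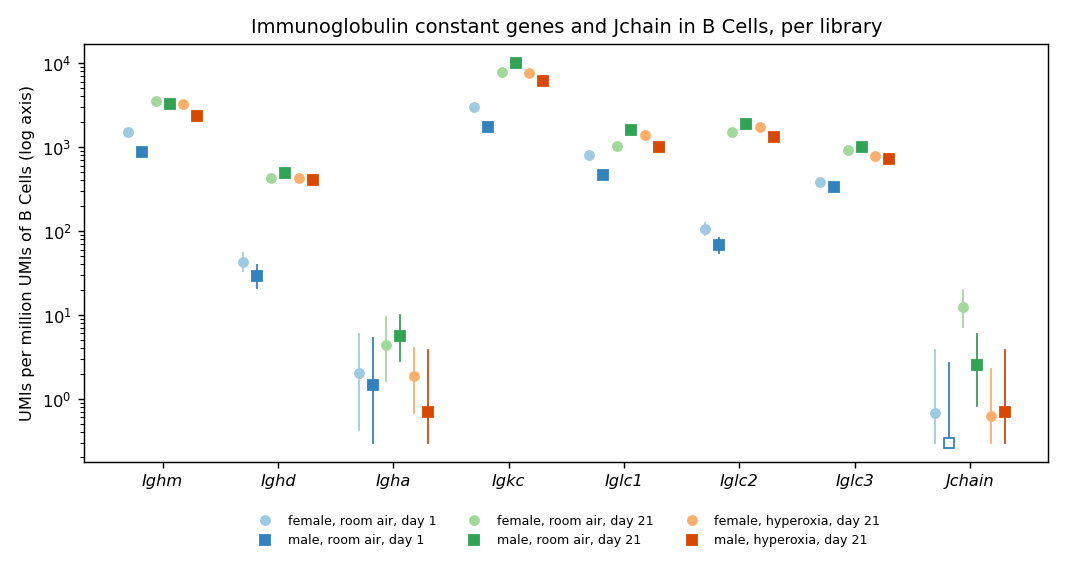
Level of each member in B Cells of each library, in CPM on a log axis, with bars for the exact 95% Poisson counting interval and an open symbol at the axis floor for a library with 0 UMIs. Ighd and Iglc2 show the widest gap between the day 1 libraries (Ighd 43.0 and 29.0, Iglc2 106 and 67.5 CPM) and the day 21 libraries (Ighd 409 to 486, Iglc2 1329 to 1879 CPM), and Igha and Jchain stay below 13 CPM.

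Among the light chains, Igkc stood at 2985 and 1746 CPM at day 1, at 7826 and 9875 CPM in room air at day 21, and at 7560 and 6174 CPM after hyperoxia. It was found in 61.2% and 46.5% of B Cells at day 1 and in 92.9% to 98.2% of them at day 21. In both sexes the hyperoxia library lay below the room air library of day 21, by little in females and by more in males. In Cd79-holding cells of day 1 Igkc stood at 5283 and 3685 CPM, still below each day 21 library.

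The lambda copies differed in how far apart the ages lay. Iglc1 stood at 799 and 469 CPM at day 1, at 1022 and 1614 CPM in room air at day 21, and at 1384 and 1007.5 CPM after hyperoxia. Iglc2 stood at 106 and 67.5 CPM at day 1, at 1527 and 1879 CPM in room air at day 21, and at 1751 and 1329 CPM after hyperoxia. Iglc3 stood at 383 and 331 CPM at day 1, at 926 and 999 CPM in room air at day 21, and at 777 and 722 CPM after hyperoxia. In the whole class the ages did not overlap for any of the 3 copies, a count without the share over all genes beside it. The gap was widest for Iglc2. In Cd79-holding cells of day 1 Iglc1 stood at 1413 and 989 CPM, where the ages overlap, Iglc2 at 187 and 142 CPM and Iglc3 at 677 and 698 CPM, where they do not. As a share of all light chain UMIs in B Cells, Iglc2 was 2.48% and 2.58% at day 1 and 13.1% to 15.3% at day 21. Igkc kept a share of 65.9% to 69.9% in all 6 libraries, and Iglc1 had 18.7% and 17.9% at day 1 and 9.05% to 12.1% at day 21.

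Jchain was rare in B Cells as well, with 1 and 0 UMIs at day 1, 17 and 5 in room air at day 21, and 2 and 1 after hyperoxia. In the female room air library 8 of the 17 UMIs came from 1 cell, and in the male one all 5 did.

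The age comparison, day 21 against day 1 in room air, asks how the antibody genes of lung B cells differ between newborn and weaning-age lungs. In edgeR's quasi-likelihood test on counts summed per library, with sex as a covariate, 6 of the 8 members passed the low-count filter and all 6 rose. The background was high, since 48.9% of the 9661 genes tested were called in either direction and 25.4% as higher. The median log2 fold change of the 6 members was 1.58, beside −0.01 over all genes tested. Igha and Jchain were not tested. With 1 pool of mice per library, p-values here cover these libraries only. The age and hyperoxia fits left 1 residual degree of freedom per gene. edgeR's estimate of the spread also draws on the other genes tested, so a small p does not rest on the spread of that gene alone.

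Iglc2 rose most, by 4.14 ± 0.27 (log2 fold change ± SE) with an edgeR adjusted p of 5.0e-06. Ighd rose by 3.48 ± 0.24 (edgeR adjusted p 6.3e-06). Igkc rose by 1.77 ± 0.24 (edgeR adjusted p 0.00026), Ighm by 1.39 ± 0.20 (0.00039) and Iglc3 by 1.26 ± 0.19 (0.00060). Iglc1 rose least, by 0.90 ± 0.30 (edgeR adjusted p 0.034). For each of them both day 21 room air libraries lay above both day 1 libraries. The share of all genes tested that lay apart in this way was not counted, so this order is a description only. Without the male day 1 library Ighm (1.05) and Iglc1 (0.62) were no longer called, and without the male day 21 library Iglc1 (0.51) was not. Those fits left out the sex covariate as well, so library and covariate cannot be told apart there. Iglc1 was also not called by DESeq2 (0.89, adjusted p 0.37) or with upper-quartile scaling (0.72).

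Not all of these rises held in other sets of cells. In B Cells with a Cd79a or Cd79b UMI, 3 members rose: Iglc2 by 3.27 ± 0.25, Ighd by 2.63 ± 0.23 and Igkc by 0.89 ± 0.23 (edgeR adjusted p 2.4e-06, 4.3e-06 and 0.0094), where 41.6% of all genes tested were called and 22.6% as higher. The values for Ighm (0.56 ± 0.21), Iglc3 (0.38 ± 0.20) and Iglc1 (0.02 ± 0.28) did not pass the test. The third set of cells was the barcodes to which the authors gave no class and which held at least 10 Cd79a UMIs, also chosen after seeing the data. In them Iglc2 rose by 2.42 ± 0.27 and Ighd by 1.22 ± 0.32, Iglc1 fell by 1.39 on the log2 scale (SE 0.30), and the values for Igkc (−0.29 ± 0.30), Ighm (−0.38 ± 0.25) and Iglc3 (−0.63 ± 0.26) did not pass, where 37.8% of all genes tested were called and 22.4% as higher. Iglc2 and Ighd were thus called higher in all 3 sets of cells. The sets are not independent, since all come from the same libraries. The Cd79-holding cells are part of the first set and in room air at day 21 are the same 110 and 234 cells. The limit of 10 Cd79a UMIs was the same at both ages, while the median barcode of the third set held 5886.5 and 5070.5 UMIs at day 1 and 14569 and 8339 in room air at day 21, so that it asks for more Cd79a per UMI at day 1. Cd79a itself had an age value of −0.75 ± 0.29 there (not called), and the part of this limit in the values of the members was not tested. The counts at day 1 were made with another version of the counting software than those at day 21, so that version and age cannot be told apart. The default for intronic reads differs between these versions, the setting used is not given in the sources used here, and Ighd, Iglc2 and Ighm have introns in an annotated transcript while Igkc, Iglc1 and Iglc3 have 1 exon.

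**Figure D2:**
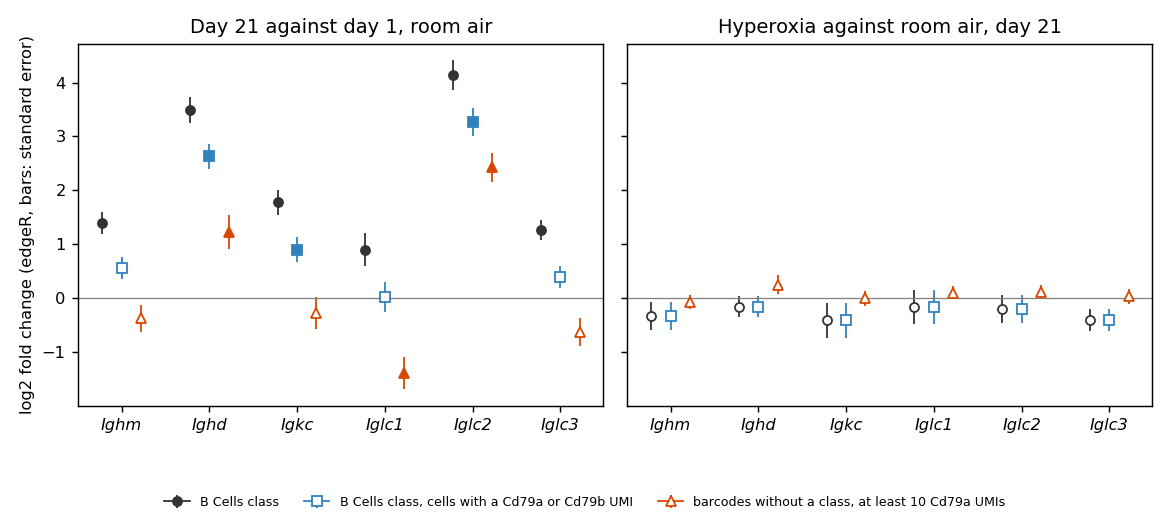
Log2 fold change of the 6 tested members, with bars for the standard error, for day 21 against day 1 and for hyperoxia against room air, in the 3 sets of cells. Filled symbols mark an edgeR adjusted p under 0.05. Iglc2 (4.14, 3.27 and 2.42) and Ighd (3.48, 2.63 and 1.22) are filled in each set for age, and no member is filled for hyperoxia.

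The genes around the antibody genes shifted with them. Of 14 genes of the B cell receptor complex and its signalling, all were tested, 12 rose and 1 fell (Fcgr2b, the inhibitory antibody receptor, named after its value was seen), with a median of 1.86. Of 15 regulators and surface proteins of B cells, 14 rose, with a median of 2.03. Over all genes 25.4% were called higher in B Cells, 22.6% in Cd79-holding cells and 22.4% in the barcodes without a class. Bank1, a scaffold of receptor signalling, stood at 57.4 and 32.6 CPM at day 1 and at 1679 and 1408 CPM in room air at day 21 (log2 fold change 4.96 ± 0.24, edgeR adjusted p 1.9e-06). Fcer2a, the low-affinity IgE receptor of mature B cells, stood at 4.1 and 2.18 CPM and then at 109.5 and 164 CPM, on 6 and 3 UMIs at day 1 and 150 and 323 at day 21, and passed the filter through day 21. The Cd79-holding cells and the barcodes without a class were chosen by UMIs of Cd79a or Cd79b, which belong to the receptor list, so its counts there partly restate that choice. With only Cd79-holding cells, 9 rose and 1 fell in the receptor list, and 11 rose among the regulators. In the barcodes without a class 8 rose and 2 fell in the receptor list (median 1.10), and 6 rose and 3 fell among the regulators (median 0.30). Fcgr2b did not keep its fall, with 0.50 ± 0.26 (not called) in Cd79-holding cells and a rise of 1.12 ± 0.25 in the barcodes without a class. Cd81, part of the B cell co-receptor, was the gene that fell in Cd79-holding cells (−0.51 ± 0.18), and Cd79b and Cd81 fell in the barcodes without a class (also named after their values were seen).

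Genes of V(D)J recombination and of the pre-B cell receptor went the other way. Of the 8 in this list 7 passed the low-count filter and fell, in B Cells and in Cd79-holding cells alike. Genes near 0 at day 21 passed that filter through day 1 alone and so had to fall, and the count is a description only. Vpreb1, a surrogate light chain gene, stood at 143 and 145 CPM at day 1 and at 0.730 and 0.507 CPM in room air at day 21, which is 1 UMI in each library. Igll1, the other part of the surrogate light chain, had 126 and 97 UMIs at day 1 and Vpreb2 had 32 and 44, and both had 0 UMIs in each day 21 library. Among Cd79-holding B Cells, 26 of 94 (27.7%) and 19 of 65 (29.2%) held a UMI of Rag1, Rag2, Vpreb1 or Igll1 at day 1, against 1.49% to 4.26% at day 21. These cells held 1584 and 1822 CPM of Igkc at day 1, while the other Cd79-holding cells of the same libraries held 6673 and 4279 CPM. Their Ighm differed less, with 2394 and 2284 CPM against 2650 and 1615 CPM. A UMI of the cycling genes Mki67 or Top2a was found in 50% and 36.8% of them, against 14.7% and 21.7% of the others. The division was set by a few UMIs per cell, so a deeper cell enters it more easily, and the contribution of depth was not tested.

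Secretory genes of plasma cells were mixed, with 13 of 16 tested, 4 up, 3 down and a median of −0.02, where 48.9% of all genes were called. Of 12 tested, 2 were up and 3 down in Cd79-holding cells (median −0.27), and of 14 tested, 3 were up and 6 down in the barcodes without a class (median −0.58). Of the germinal centre, switching and cycling genes 5 of 8 were tested, Bcl6 rose, and Mki67 and Top2a fell (named after their values were seen). In the barcodes without a class Bcl6 and Fas were called higher, and Mki67 (−1.69 ± 0.81) and Top2a (−1.36 ± 0.80) were not called. Of genes that mark B cell subsets 4 rose and 3 fell among 10 tested. Of receptors for antibodies 8 of 11 were tested, 5 fell and Fcmr, the IgM receptor, was the one that rose (also named after its value was seen), while 3 fell and 2 rose in the barcodes without a class. Ighg3 was the single other constant gene tested and was called higher, from 0 UMIs at day 1 to the few cells described above. It passed the low-count filter through day 21 alone, so only a rise could be called.

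Genes listed as markers of other cells moved with age in B Cells as well. The 3 epithelial markers (Epcam, Sftpc, Krt8) fell, from 346 and 469 summed CPM at day 1 to 93.5 and 82.6 CPM in room air at day 21, with Krt8 at 70 and 55 UMIs at day 1 and at 0 at day 21. Of the 4 macrophage markers Cd68 (−2.55 ± 0.33) and Lyz2 (−1.45 ± 0.35) fell, and of the 3 endothelial markers Pecam1 rose (2.68 ± 0.21) and Cldn5 fell (−1.03 ± 0.23), all 4 named after their values were seen. A UMI of the endothelial list was found in 38.8% and 28.1% of B Cells at day 1. In room air at day 21 it was found in 97.3% and 81.6%, so that list was not confined to a few cells of the class. In the barcodes without a class Cldn5 turned to a rise (2.19 ± 0.43) and all 3 endothelial markers were called higher, while Cd68 (−0.61 ± 0.40) and Lyz2 (−0.65 ± 1.08) were not called and the macrophage markers Adgre1 and Mrc1 were called higher. Of the T cell markers Cd3d and Cd3e rose, and the 4 summed to 2.73 and 4.35 CPM at day 1 and to 33.6 and 113 CPM at day 21, where 4.55% and 6.84% of B Cells held one. In females 19 of 21 Cd3d and 10 of 11 Cd3e UMIs came from the highest cell of each gene. The NK marker Nkg7 stood at 0 UMIs at day 1 and at 8.03 and 14.2 CPM at day 21, with 11 of 11 and 23 of 28 UMIs from 1 cell of each library. Cd3d, Cd3e and Nkg7 passed the low-count filter through day 21 alone and Krt8 through day 1 alone, which set their directions. The neutrophil markers summed to 699 and 1651 CPM at day 1 and to 3095 and 53.2 CPM at day 21, with none called. The part of these markers in the age result was not tested.

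The hyperoxia comparison at day 21 asks whether an early exposure to high oxygen left a difference in the antibody genes after recovery. No member passed the test in B Cells, where 168 of 9997 genes (1.68%) were called. The log2 fold changes of the 6 tested members were all negative, from −0.41 (Igkc, SE 0.33, and Iglc3, SE 0.21) to −0.17 (Ighd, SE 0.20), with Ighm at −0.34 ± 0.26, Iglc2 at −0.20 ± 0.27 and Iglc1 at −0.17 ± 0.32. Their median was −0.27, beside −0.02 over all genes tested. The smallest unadjusted p was 0.086, for Iglc3, and 916 of all genes had an unadjusted p under 0.05 by edgeR. DESeq2 called 0 of the 6 members as well, with 0 at an unadjusted p under 0.05. In simulated data of this design with 10051 genes, 67% of 2-fold and 98% of 4-fold changes were called, and smaller changes were not simulated. The simulation gave every gene the same preset spread between libraries, not taken from these data. These shares therefore need not hold for the members. In the barcodes without a class that held at least 10 Cd79a UMIs, Ighd (0.25 ± 0.18), Iglc1 (0.10 ± 0.12), Iglc2 (0.11 ± 0.12) and Iglc3 (0.03 ± 0.14) had the opposite sign, also not called, and 0 of 12654 genes (0.0%) were called there by edgeR, with 607 at an unadjusted p under 0.05. In Cd79-holding B Cells, where 1.55% of genes were called, no member was.

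Of the other lists, 6 genes were called. Ighg3 fell (log2 fold change −4.12 ± 0.69, edgeR adjusted p 0.046), which rests on 3 and 2 against 38 and 19 UMIs and on the few cells given above. It passed the low-count filter through the room air libraries alone, so only a fall could be called. Top2a, a cycling gene, fell from 49.7 and 21.3 to 11.5 and 4.13 CPM (−2.22 ± 0.35, edgeR adjusted p 0.039). Single cells held 27 of 68 and 17 of 42 of its UMIs in room air, and 15 of 37 and 2 of 6 after hyperoxia. Fas, a death receptor, rose from 12.4 and 10.1 to 39.1 and 95.7 CPM (2.44 ± 0.39, edgeR adjusted p 0.041). Cldn5 (2.49 ± 0.30) and Cdh5 (2.42 ± 0.34), junction genes of endothelium, and Cd93 (2.24 ± 0.38), which endothelium also makes, rose as well. The 3 endothelial markers summed to 873 and 1571 CPM in B Cells after hyperoxia and to 611 and 462 CPM in room air. Of these, Cldn5 stood at 60.6 and 68.4 CPM in room air and at 225 and 610 CPM after hyperoxia. Cdh5 stood at 49.7 and 43.6 CPM and then at 161 and 403 CPM, and Pecam1, also in the sum, was not called. The part of these markers in the called genes was not tested. In the fits without a library that follow, the sex covariate was left out as well. None of the 6 genes was called without the sex covariate, without suspected doublets (Fas was not tested there), or without either room air library.

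Female against male over the 3 conditions, 0 of 6 members were called in B Cells, where 5 of 10287 genes (0.0486%) were and 556 had an unadjusted p under 0.05 by edgeR. DESeq2 called 0 members for sex too. Ighm was 0.36 ± 0.15 higher in females on the log2 scale, with an unadjusted p of 0.047 from edgeR and an adjusted p of 0.80. Its female library was the higher one in 3 of 3 conditions, and the share of all genes with one order throughout was not counted. The other values lay between −0.01 (Iglc3) and 0.16 (Igkc). Of the listed genes none was called, and the smallest p belonged to Cd3g (−2.13), Cd3d (−1.17), Top2a (0.81) and Ikzf3 (0.58), each with an edgeR adjusted p of 0.80. The interaction of sex and hyperoxia was called for 0 of 7 members tested, where 45 of 11134 genes (0.404%) were and 806 had an unadjusted p under 0.05 by edgeR. It set the sex difference after hyperoxia against that in room air over day 1 and day 21 together, not against day 21 alone. The values ran from −2.35 ± 3.31 (Jchain) to 0.50 ± 0.44 (Iglc1). The listed genes with the smallest p were Cd93 (−1.44), Cldn5 (−1.59), Rag1 (−2.81) and Cdh5 (−1.24), with edgeR adjusted p of 0.061 to 0.12.

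Within single cells at day 21, most B Cells held UMIs of both kinds of light chain by the rule used here. A B Cell with at least 10 light chain UMIs was called kappa where Igkc gave at least 90% of them, lambda where it gave at most 10%, and otherwise both. At day 21 the call was both for 98 of 110 cells (89.1%, exact 95% interval 81.7 to 94.2) and 208 of 233 (89.3%) in room air, and for 293 of 335 (87.5%) and 121 of 140 (86.4%) after hyperoxia. Kappa was called in 7.27% and 6.44% of cells in room air and in 6.87% and 5.00% after hyperoxia, and lambda in 3.64% and 4.29% and then in 5.67% and 8.57%. At day 1, 53.7% and 66.7% of 82 and 51 callable cells were called both, 39.0% and 25.5% kappa, and 7.32% and 7.84% lambda. The day 21 libraries overlapped within their intervals, and the day 1 libraries had fewer calls of both and more of kappa. Callable cells were 61.2% and 44.7% of B Cells at day 1, against 99.3% to 100% at day 21. The version of the counting software also differed between the ages, so version and age cannot be told apart in these calls.

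The Igkc share of a cell's light chain UMIs had a median of 71.8% to 74.3% per library at day 21, and of 85.2% and 73.7% at day 1. In cells called both, the median count at day 21 was 60 to 82 Igkc, 4 to 7 Iglc1, 12 to 13 Iglc2 and 7 to 8 Iglc3 UMIs. In barcodes without a class that held at least 10 Cd79a UMIs, both was called in 86.2% to 90.5% at day 21 and in 74.6% and 72.9% at day 1, with a median Igkc share of 72.2% to 75.4%. With Iglc2 left out of the lambda UMIs, a choice made after seeing the data, the median share of both over the day 21 libraries was 70.8% in place of 88.3%, and with the limit at 80% it was 65.9%.

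Variable region UMIs give another view of the same cells, from 160 Igkv genes and 3 Iglv genes. At day 21 an Igkv UMI was found in 50.9% to 64.3% of the cells called both, and an Iglv UMI in 9.56% to 15.7% of them. Of the cells called kappa 57.1% (4 of 7 cells) to 87.5% (7 of 8) held an Igkv UMI. An Iglv UMI was found in 0% (0 of 8 and 0 of 7) to 20% (3 of 15) of them. Of the cells called lambda 47.4% (9 of 19 cells) to 60% (6 of 10 cells) held an Iglv UMI, and 8.33% (1 of 12) to 50% (5 of 10) held an Igkv UMI. Among cells called lambda, the leading gene varied between libraries: Iglc1 led in 12 of 12 cells of the male hyperoxia library, while in the female hyperoxia library Iglc1 led in 8, Iglc2 in 9 and Iglc3 in 2 of 19. The difference between libraries in the leading gene was not tested, since each is 1 pool of mice. Free RNA in a droplet is counted with the RNA of its cell. In capillary cells (gCap), which should lack these genes, Iglc2 stood at 0.723 to 3.51 CPM at day 21, beside 1329 to 1879 CPM in B Cells, at a median of 7226 to 8693.5 and 7311 to 10854.5 UMIs per cell. Its part in the calls of both was not tested.

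**Figure D3:**
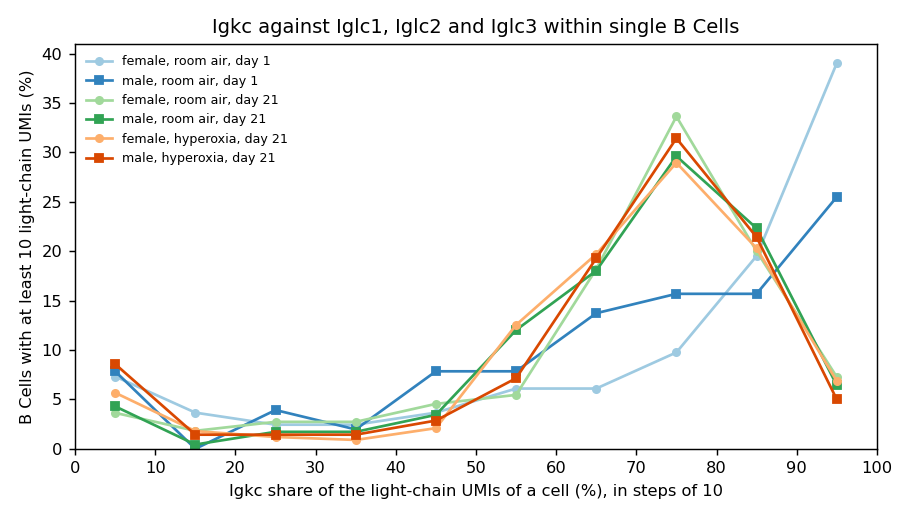
Share of B Cells (those with at least 10 light chain UMIs) against the Igkc share of the light chain UMIs of the cell, in steps of 10%, 1 line per library. The day 21 libraries peak together between 70% and 80%, with medians of 71.8% to 74.3%, and the day 1 libraries hold more cells at 90% and above (39.0% and 25.5%).

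Outside B Cells, the members did not keep the proportions they had in B Cells. Ighm made up 18.0% to 23.0% of member UMIs in B Cells at day 21 and 66.6% to 84.1% in all other classes together, and at day 1 it made up 25.7% and 24.9% against 55.6% and 56.6%. Per Igkc UMI there were 0.330 to 0.501 Ighm UMIs in B Cells in all libraries. In gCap the ratio was 0.550 to 0.884 at day 21, so the members there stood nearer to their proportions in B Cells. In T Cells it was 16.9 to 35.3.

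The Ighm excess lay in lymphoid and some myeloid classes. T Cell held 225 and 222 CPM of Ighm in room air and 194 and 204 CPM after hyperoxia, with a UMI in 77.9% to 81.5% of cells. In gCap at day 21 the level was 2.29 to 8.38 CPM, with a UMI in 2.02% to 4.81% of cells, at a median of 7226 to 8693.5 UMIs per cell beside 9735 to 15432 in T Cell. A single gCap cell of the male room air library held 32 Ighm UMIs, while the highest cell of the other day 21 libraries held 2 or 3. Thinned to 2000 UMIs per cell, the shares were 29.0% to 34.1% in T Cell and 0.454% to 1.24% in gCap. Igkc was found in 4.58% to 8.50% of T Cell cells and Cd79a in 1.09% to 4.05%, so most T cells with an Ighm UMI had neither.

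NK Cells held Ighm at both ages, with 133 and 110.0 CPM at day 1, 114 and 105 CPM in room air at day 21, and 116 and 126 CPM after hyperoxia. At day 1 these cells held 1 and 0 Igkc UMIs beside 239 and 142 Ighm UMIs. T Reg held 128 to 222 CPM, Classical Monocytes 43.7 to 74.0 CPM, Nonclassical Monocytes 63.0 to 109 CPM and Neutrophils 42.5 to 65.0 CPM at day 21. Neutrophils at day 1 held 5.45 and 16.1 CPM, in males with 29 of 73 UMIs from 1 cell.

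**Figure D4:**
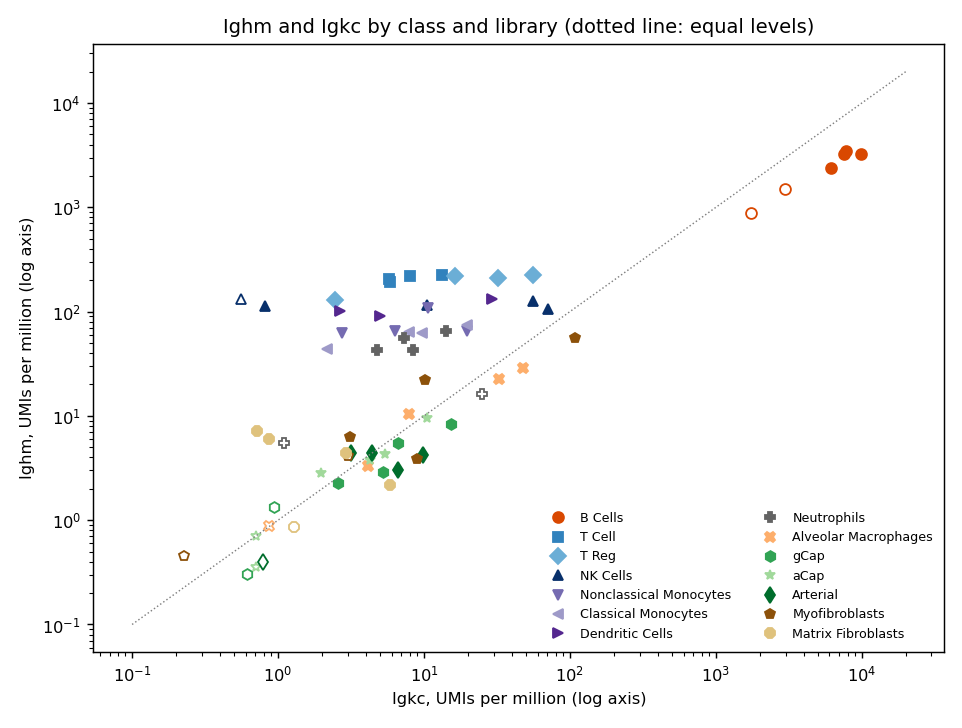
Ighm against Igkc, both in CPM on log axes, 1 point per class and library with at least 50 cells (filled at day 21, open at day 1; units with 0 UMIs of either gene not drawn), with a dotted line at equal levels. B Cells lie below the line (0.330 to 0.501 Ighm per Igkc UMI), and T Cell lies above it (16.9 to 35.3).

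The Ighm counts were also read in cells with no UMI of Igkc, Iglc1, Iglc2, Iglc3, Cd79a, Cd79b or Ms4a1. In such T Cell cells Ighm stood at 194 (177 to 213) and 221 (210 to 232) CPM in room air and at 193 (183 to 203) and 203 (192 to 215) CPM after hyperoxia, with a UMI in 77.1% to 79.8% of them. In such NK Cells it stood at 127 and 100.3 CPM at day 1 and at 79.4 to 113 CPM at day 21. In such gCap cells it stood at 1.23 and 0.106 CPM at day 1 and at 2.38 to 5.84 CPM at day 21. In T Cell the level in all cells was 194 to 225 CPM, and in NK Cells at day 21 it was 105 to 126 CPM, and the widest gaps were in the female room air library for T Cell (225 against 194 CPM) and in the male one for NK Cells (105 against 79.4 CPM). A UMI of one of 185 Ighv genes was found in at most 1 of the 150 to 706 T Cell cells with an Ighm UMI of each library, and in 29.5% to 38.2% of B Cells at day 21. These shares were read at unlike depth and cannot be compared directly. The median cell held 2 to 2.5 Ighm UMIs in T Cell and 21 to 35 in B Cells at day 21. Ighd was found in 4.02% to 6.52% of T Cell cells.

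**Figure D5:**
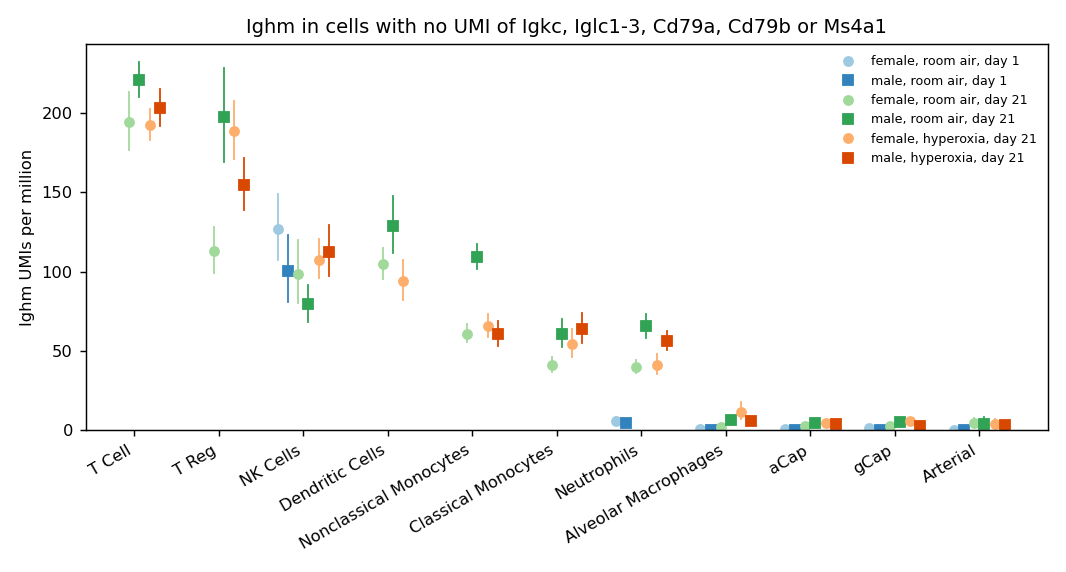
Ighm in cells with no UMI of Igkc, Iglc1, Iglc2, Iglc3, Cd79a, Cd79b or Ms4a1, in CPM, by class and library (units of at least 50 such cells), with bars for the exact 95% Poisson interval. T Cell stands at 193 to 221 CPM and gCap at 0.106 to 5.84 CPM.

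Iglc2 was the one light chain gene called outside B Cells and the blood vessel and myeloid classes. In Myofibroblasts it stood at 10.96 and 58.1 CPM in room air at day 21 and at 31.9 and 5.09 CPM after hyperoxia, and at 7.01 and 0.684 CPM at day 1. Single cells set much of this, since the highest cell held 63 of 68 UMIs in the female day 1 library and 53 of 63 in the male room air library of day 21. Myofibroblasts of the female day 21 room air library held 7 Iglc2 UMIs beside 2 of Igkc, at most 2 in a cell.

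In the classes other than B Cells with at least 50 cells per library, 12 pairs of a member and a class could be tested for age, and 10 were called, all higher at day 21, where 54.8% of all gene and class pairs were called and 28.9% as higher. Ighm rose in Alveolar Macrophages (log2 fold change 4.73 ± 0.75), Arterial (4.16 ± 1.07), aCap (3.37 ± 0.65), Myofibroblasts (2.62 ± 0.71), Neutrophils (2.25 ± 0.19) and gCap (2.23 ± 0.44). Igkc rose in Alveolar Macrophages (5.25 ± 0.70), gCap (3.02 ± 0.40) and aCap (2.96 ± 0.62), and Iglc2 in Myofibroblasts (3.01 ± 0.65). A pair was tested only where its counts passed the filter, which a gene near 0 at day 1 could do through day 21 alone. B Cells made up 1.16% and 1.01% of classed cells at day 1 and 1.29% and 3.31% in room air at day 21, and the part of their free RNA in these pairs was not tested. The fits without a library that follow also left out the sex covariate. Without the male day 21 library 4 pairs were called, without the female day 21 library 20 and without the female day 1 library 21.

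For hyperoxia 2 of 40 pairs were called, Igkc in Classical Monocytes (1.67 ± 0.28) and in Nonclassical Monocytes (0.96 ± 0.21), where 2.33% of all pairs were called and 1.63% as higher. In Classical Monocytes Igkc stood at 2.18 and 7.90 CPM in room air and at 9.62 and 19.7 CPM after hyperoxia, but in the male hyperoxia library 59 of 75 UMIs came from 1 cell. In Nonclassical Monocytes 56 of 99 UMIs of that library came from 1 cell. Without the male hyperoxia library, in a fit that also left out the sex covariate, the value there was −0.14. For sex 2 of 26 pairs were called, where 0.111% of all pairs were and 0.0634% as lower. Ighm (−2.13 ± 0.36) and Igkc (−2.75 ± 0.30) were lower in female Alveolar Macrophages. Igkc stood there at 4.14 and 7.83 CPM in the female day 21 libraries and at 32.4 and 47.7 CPM in the male ones, and single cells held 75 of 226 and 44 of 233 of the male UMIs. Without suspected doublets the values were −0.06 for Ighm and −0.88 for Igkc, and neither was called.

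Summed over all classed cells of a library, fewer B cells and less RNA per cell cannot be told apart. Igkc stood at 42.2 and 22.5 CPM at day 1, at 118 and 283 CPM in room air at day 21 and at 294 and 123 CPM after hyperoxia. The levels are given beside the share of B Cells among classed cells, which was 1.16% and 1.01%, then 1.29% and 3.31%, then 4.02% and 1.55%. Between day 1 and day 21, 5 of 8 members rose, where 52.7% of 19241 genes were called and 29.1% as higher: Iglc2 (4.36 ± 0.81), Ighd (4.01 ± 0.59), Igha (3.33 ± 0.68), Ighm (2.37 ± 0.51) and Iglc3 (1.81 ± 0.42). Igkc (2.28 ± 0.63, edgeR adjusted p 0.060), Jchain (1.66 ± 0.80) and Iglc1 (1.46 ± 0.74) did not pass. Igha rested there on 17 and 31 UMIs at day 21 and on 3 and 2 at day 1. It passed the low-count filter through day 21 alone, so only a rise could be called. No member was called for hyperoxia (0 of 18959 genes called, 2778 at an unadjusted p under 0.05) or for sex (0 of 19519 genes called, 395 at an unadjusted p under 0.05).

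The genes whose levels ran most like those of each member, over 112 units of a class in a library with at least 50 cells, were mostly genes of B cells. The measure was Pearson's r of log2(CPM + 1) among 16514 genes outside the immunoglobulin loci, and it is a description, since the units share libraries and 6 of them are B Cells. For Igkc they were Cd79a (0.94), Ly6d (0.93) and Ms4a1 (0.93), for Iglc1 Ms4a1 and Fcmr (each 0.94), and for Iglc3 Fcmr (0.96) and Ms4a1 (0.95). For Iglc2 they were Fcmr (0.91), Pax5 (0.90) and Pou2af1 (0.89), and for Ighd Pou2af1, Fcmr and Pax5 (0.93, 0.92 and 0.92). For Ighm they were Gm8369 (0.88), Btla (0.87) and BE692007 (0.85). For Igha they were 1700027J07Rik (0.86) and Pou2af1 (0.85), and for Jchain Il5ra (0.75), Gm11690 (0.73) and Fcrl5 (0.71), both from few UMIs.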

How the data were processed

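Single-cell RNA was measured in 6 libraries, 1 per sex, age and treatment, with total UMIs of 122173482 to 163649658. The values are UMI counts per gene and barcode, deposited by the authors as unnormalised matrices. Per the file headers, Cell Ranger 6.0.0 made the day 1 matrices and 7.0.1 those of day 21, and the headers do not say whether intronic reads were counted. The submitters' processing notes name Cell Ranger 6.0.0, Seurat 4.1.1 and mm10. Cell classes came from the authors' deposited annotation, and barcodes without a class were kept apart.

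Counts were summed per library and class and tested with edgeR 4.0.16 (R 4.3.3; filterByExpr, TMM scaling, quasi-likelihood test) in classes with at least 50 cells in each library compared. Hyperoxia used the 4 day 21 libraries and age the 4 room air libraries, both with sex as a covariate. Sex used all 6 libraries with condition as a covariate, and the interaction term was fitted on the same 6. A gene was called at a Benjamini-Hochberg adjusted p under 0.05 over all genes tested in a class. The SE was taken from the fold change and the F statistic. CPM are UMIs per 1000000 UMIs of the cells summed. The floor for a gene at 0 is 3 UMIs of the library's cells. Thinning drew 2000 UMIs per cell. Suspected doublets were kept in the main values. For the alternative without them, scores came from Scrublet in scanpy 1.11.5, whose automatic cut marked 10 of 11278 cells in the male day 1 library, so the top 5% of scores were left out in each library. Of the B Cells this left out 5.97% and 10.5% at day 1 and 18.2% and 5.98% in room air at day 21. After hyperoxia it left out 15.8% and 16.3%. The edgeR steps were tested on simulated data with 200 changed genes.

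The members and lists were chosen with earlier results of these data known. Beside the members, the listed genes named are those called in B Cells, at most 10 per comparison by size of fold change, or the 4 with the smallest p where none was called. For genes most like a member, up to 3 were named for each among genes with at least 200 UMIs, leaving out immunoglobulin genes. One gene that the rule names is not reported here. Replicate numbers were given in accession order and pair nothing. Alternatives were DESeq2 1.42.0, other scalings, no low-count filter, no covariate, stricter cells (1000 genes or more, mitochondrial UMIs up to 10%), left-out libraries and other light chain limits.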

Additional observations from a re-analysis of the deposited data

Results flagged for a closer look

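The comparisons use cells with a class, and the barcodes without one held 54.4% to 79.7% of all member UMIs of a library. Among them, 3 barcodes held at least 50 UMIs of Igha or Jchain, and none with a class did. In the female hyperoxia library 1 barcode held 133 Igha UMIs of the 164 in the library, with 8 Jchain, 100 Igkc, 48 Cd79a and 0 Ighm UMIs. In room air at day 21, 1 female barcode held 892 Igha UMIs of 922, with 190 Jchain, 992 Iglc2, 132 Mzb1, 0 Igkc and 1 Ighm UMIs. There, 1 male barcode held 1670 Igha UMIs of 1767, with 741 Jchain, 6620 Igkc, 136 Mzb1 and 76 Ighm UMIs. Mzb1 is a chaperone of antibody-secreting cells. The male hyperoxia library had 18 Igha UMIs in all, at most 1 in a barcode. So single barcodes gave 81.1%, 96.7% and 94.5% of the Igha of their libraries.

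Barcodes without a class and with at least 10 Cd79a UMIs numbered 130 and 72 at day 1, 121 and 866 in room air at day 21, and 545 and 650 after hyperoxia (female, then male). The B Cells class held 134 and 114, then 110 and 234, then 336 and 141 cells, so these barcodes were the more numerous at day 21 and the fewer at day 1. They held 85.5% to 95.9% of the member UMIs without a class. Their Ighm stood at 3755 and 3225 CPM at day 1, above the B Cells there, and at 2992 to 3511 CPM at day 21. Their Igkc stood at 7192 and 6669 CPM at day 1 and at 5747 to 8333 CPM at day 21. Mitochondrial UMIs had a median of 4.08% to 5.99%.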

How the results depend on the processing

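No paired analysis was possible because each group holds 1 library and the replicate numbers were given in accession order. The leave-one-out fits of the interaction were not run, since no residual degrees of freedom remained. Those of age and hyperoxia left out the sex covariate as well, so library and covariate cannot be told apart in them. Those of sex kept their covariate. The cause of each change below was not tested. Of 78 alternative values of the 6 members for age, 66 kept direction and call, 8 kept only direction and 4 reversed. Of 84 for hyperoxia, 76 were unchanged in direction and call and 8 reversed.

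Members called in B Cells were 1 without a low-count filter for hyperoxia (Jchain), 3 with Cd79-holding cells and 3 with barcodes without a class for age (4 to 7 on leaving out each library), and 1 without doublets (Iglc1) and 1 with barcodes without a class (Igha) for the interaction. All genes called in B Cells for hyperoxia were 260 with upper-quartile scaling, 703 without a filter, 16 without doublets, 450 without the Xist-negative female hyperoxia cells, and 0 without the covariate, with the stricter cell filter and in barcodes without a class (0 to 825 on leaving out each library). For age they were 2266 with DESeq2 (3307 to 5171 on leaving out each library). For sex they were 99 without a filter, 0 without the covariate and 3 without doublets (4 to 21). For the interaction they were 1 with DESeq2, 111 with upper-quartile scaling, 116 with scaling without immunoglobulin genes, 181 without a filter, 605 without doublets, 4 without Xist-negative cells, 166 with the stricter filter, 183 with Cd79-holding cells and 19 in barcodes without a class.

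Pairs of a member and another class for hyperoxia were 0 with DESeq2 and without the covariate, and 7 without a filter (2 to 12). For age they were 4 with DESeq2 and 25 without a filter (4 to 21). For sex they were 0 with DESeq2 and without the covariate, 9 without a filter, and 1 without doublets and without Xist-negative cells (4 to 9). In all classed cells summed, 5 to 7 members were called for age.

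Directions reversed for hyperoxia without doublets for Iglc1 (0.042) and Iglc2 (0.087), without the male room air library for Iglc1 (0.22; −0.55 to 0.22 on leaving out each library) and Iglc2 (0.0025; −0.42 to 0.0025), and in barcodes without a class for Ighd (0.25), Iglc1 (0.10), Iglc2 (0.11) and Iglc3 (0.028). In those barcodes age reversed for Ighm (−0.38), Igkc (−0.29), Iglc1 (−1.39), Iglc3 (−0.63), Nkg7 (−0.13), Cldn5 (2.19), Fcgr2b (1.12), Cd79a (−0.75), Cd79b (−0.91), Ly6d (−1.23) and Ms4a1 (−0.60), sex for Cd3g (0.10) and Ikzf3 (−0.11), and the interaction for Rag1 (1.38). Igkc in Nonclassical Monocytes reversed without the male hyperoxia library (−0.14, with −0.14 to 2.17 on leaving out each library).

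The median share of cells called both was 65.9% with the limit at 80%, 94.0% at 95% and 70.8% without Iglc2 at day 21, and 40.7%, 72.4% and, in barcodes without a class, 73.7% at day 1. The share called kappa was 27.2%, 1.00% and 24.9% at day 21, and at day 1 49.9% at 80%, 20.6% at 95%, 25.4% with at least 20 UMIs and 20.9% in barcodes without a class. Ighm made up 82.7% of member UMIs of other classes at day 21 without the 5 cells with most member UMIs per library and class, 78.1% without doublets and 23.3% in barcodes without a class, and at day 1 76.9% and 26.4%.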
